A study of Mus musculus with 4 samples.

Results

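Of the 186874 splice junctions marked as known in deposited RNA sequencing of mouse fetal liver cells, 1759 skip annotated cassette exons, in 1349 of the 18992 genes with a known junction. A junction counted as such when its gene also has a known junction with the same start that ends earlier, and a known junction with the same end that starts after that, so that the annotation holds both a path around the exon and a path through it. Reads on the path around are called skipping reads, and reads on the junctions into and out of the exon are called inclusion reads. The choice used no read count. Libraries came from 2 mice labelled wild type (WT) and 2 mice labelled hnRNP L -/- (KO). The labels list mouse lines held for the project, among them C57BL/6, an LckCre transgenic line, a ROSA26 reporter line carrying tdTomato and EGFP, and CD45.1, without tying any line to a library. The type of deletion, the age of the embryos and the sex are missing from the labels. Values of the 4 libraries are given throughout in the order WT replicate 1, WT replicate 2, KO replicate 1, KO replicate 2.

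A cassette exon is kept or left out of the mature messenger RNA as a unit, by competition between its splice sites and those of its neighbours. hnRNP L is a nuclear RNA-binding protein that binds stretches of alternating C and A and can repress or promote the use of an exon depending on where it binds. Its best known target is Ptprc, which encodes the leukocyte phosphatase CD45 and whose variable exons 4, 5 and 6 it represses. Fetal liver holds erythroid and myeloid precursors among hepatocytes, so that its RNA mixes the splicing patterns of several cell types.

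The exons of the events described most fully are shown here in the order in which they recur, so that the CA stretches can be set against the read counts. They are the GENCODE M21 exons (GRCm38), found by the same gene and the same lengths of the exon and of both introns, and 1504 of 1561 single skipped exons (96.3%) had such a match. Capitals mark ACAC or CACA and their overlaps. The Hk1 exon (chr10:62291975-62292043, minus strand, exon 10, coding) and the Gpbp1 exon (chr13:111447896-111447955, minus strand, exon 7, coding) both hold the 6-base CA motif counted below, and both had fewer skipping reads per inclusion read in KO. Both were chosen after their values were seen. Of the 33 tested single exons with a GENCODE match and this motif, 6 had more skipping in both KO libraries than in both WT libraries and 7 had less. Events that skip several exons, Ptprc among them, were not searched for it. The median log2 change of the skipping odds over the 33 was 0.22. The Arpc4 exon (chr6:113380726-113380844, plus strand, exon 2, coding) had a single short stretch of overlapping matches. The Rreb1 exon (chr13:37941543-37941704, plus strand, exon 10, coding) had 2 separate matches. The Add1 exon (chr5:34629136-34629172, plus strand, exon 15, coding but for its last bases) had none.
Hk1: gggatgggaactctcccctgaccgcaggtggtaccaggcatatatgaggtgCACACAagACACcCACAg
Gpbp1: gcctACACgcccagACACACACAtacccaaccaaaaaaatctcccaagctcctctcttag
Arpc4: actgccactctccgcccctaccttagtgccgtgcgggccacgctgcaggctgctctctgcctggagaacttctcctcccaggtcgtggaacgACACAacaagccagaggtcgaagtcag
Rreb1: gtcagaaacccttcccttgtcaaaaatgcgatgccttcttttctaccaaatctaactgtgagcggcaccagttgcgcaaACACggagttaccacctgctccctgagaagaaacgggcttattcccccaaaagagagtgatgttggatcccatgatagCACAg
Add1: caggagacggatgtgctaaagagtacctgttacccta

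For Add1 the sequence that skipping creates is shown as well, with the last 20 bases of the exon before in lower case and the first 20 bases of the exon after in capitals. For Ptprc the 3 variable exons are shown (chr1:138122456-138122584, chr1:138120020-138120166 and chr1:138117754-138117894, minus strand), with the CA stretches in capitals.
Add1 joined: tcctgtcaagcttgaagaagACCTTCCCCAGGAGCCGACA
Ptprc exon 4: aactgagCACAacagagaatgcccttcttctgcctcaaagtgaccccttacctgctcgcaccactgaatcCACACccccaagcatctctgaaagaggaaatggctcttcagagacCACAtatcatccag
Ptprc exon 5: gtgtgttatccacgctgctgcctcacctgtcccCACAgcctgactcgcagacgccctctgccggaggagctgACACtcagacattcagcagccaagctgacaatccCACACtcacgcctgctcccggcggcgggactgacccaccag
Ptprc exon 6: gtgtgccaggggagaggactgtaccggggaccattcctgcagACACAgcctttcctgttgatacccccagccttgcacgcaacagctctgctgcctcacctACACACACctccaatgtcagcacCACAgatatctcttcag

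The libraries held 4875332, 8624429, 7150406 and 6941562 reads on known junctions. Of these, 20177, 33430, 26271 and 27347 were skipping reads of the 1759 events, which is 0.367% to 0.414% of the known junction reads. Hnrnpl itself had 458, 601, 279 and 268 counts per 1000000 (CPM) in the transcript tables, a log2 change of -0.95 in KO with an SE of 0.16 (adjusted p = 0.0115 by edgeR), so that transcript remained in the KO libraries. WT replicate 1 stood apart in its putative junctions, whose reads came to 3.12% of its known junction reads against 0.647% to 0.730% in the other libraries. Xist was at 972, 926, 950 and 6.53 CPM, and this transcript of the inactive X chromosome of females was thus low in KO replicate 2 alone. The defining markers of fetal liver were present in every library. Summed erythroid markers were at 43018, 39180, 24919 and 19343 CPM, with 10 of 13 lower in KO. Summed hepatocyte markers were at 53453, 38917, 82490 and 67237 CPM, with 4 of 12 higher. Granulocyte and platelet markers summed to 851, 881, 1715 and 1372 CPM (9 of 12 higher) and macrophage and endothelial markers to 671, 636, 804 and 768 CPM (6 of 12 higher, 2 lower). Heart muscle markers summed to 74.5, 499, 8.58 and 25.7 CPM (11 of 14 lower), and Myl3 and Nppa among them were at 0 in at least 1 library. Over all 15036 genes, 11.4% were higher in KO and 9.43% lower at an edgeR adjusted p under 0.05. In such mixed tissue a change in the proportions of cell types and a change of splicing within a cell cannot be told apart, and the part of these markers in any result below was not tested.

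Most cassette events skip a single exon. Of the 1759 events, 1561 have no known junction inside the skipped stretch and 198 skip several exons. In 1535 events there is 1 inclusion junction on each side and in 224 there are more. Events of 1 gene are not independent: 273 genes have more than 1 event, up to 7, and 272 events share an inclusion junction with another event. In 115 events an inclusion junction is itself the skipping junction of another event, so its reads count as inclusion in the former and as skipping in the latter. The single exons had a median length of 93 bp, with the middle 50% between 59 and 140 bp, and 110 of them (7.05%) were microexons of at most 27 bp. The length of 1080 (69.2%) divides by 3, which keeps the reading frame on skipping only where the exon is coding. Among those matched to GENCODE, 1080 were coding, 168 coding in part, 220 in a 5′ UTR, 3 in a 3′ UTR and 33 in non-coding transcripts. The length divides by 3 in 83.9% of the coding exons and in 31.4% of those in a 5′ UTR.

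**Figure D1:**
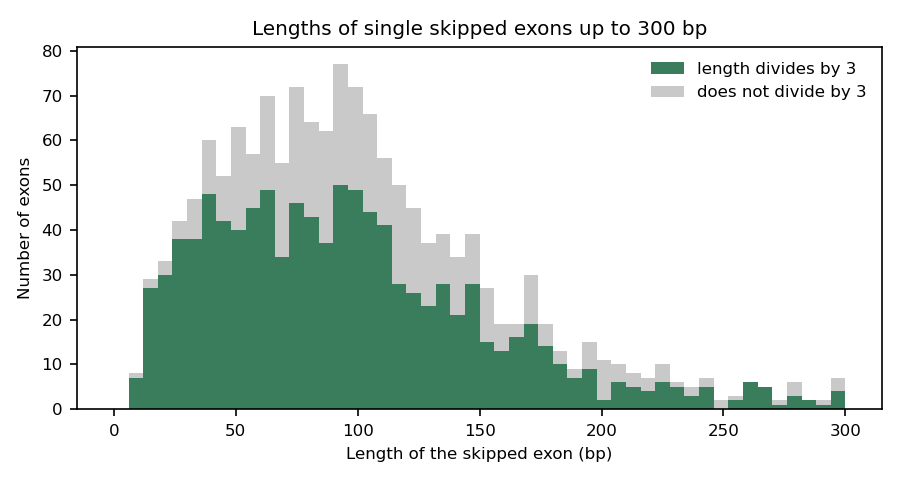
Histogram of the length of single skipped exons up to 300 bp (x axis, bp; bars of 6 bp) with the number of exons on the y axis, stacked by whether the length divides by 3. Lengths centre near the median of 93 bp, and the green part holds exons whose length divides by 3, coding or not, 69.2% over all lengths.

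Many annotated events gave no reads. Both skipping and inclusion reads were present for 983 events, 181 had skipping reads alone, 300 had inclusion reads alone and 295 had neither. The test was run on 637 events (36.2%) in 553 genes with at least 5 skipping reads, 5 inclusion reads and 20 reads together, and 1122 events did not pass this filter. A tested event had a median of 25, 42, 36 and 39 reads. Microexons were 25 of the 582 tested single exons (4.30%) and 85 of the 979 untested ones (8.68%). The skipping share, the skipping reads as a percentage of skipping reads plus the mean of the inclusion reads per side, had medians of 53.3%, 55.6%, 52.7% and 51.7% over the tested events. Of the 397 events with at least 10 such reads in each library, 60 (15.1%) had a mean WT share under 10%, 253 (63.7%) lay between 10% and 90%, and 84 (21.2%) lay over 90%. These are shares among events that had to have both skipping and inclusion reads to be tested. The exon length divides by 3 in 54.7% of the rarely skipped exons, 69.1% of those in between and 69.7% of the mostly skipped ones.

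The comparison of KO with WT asks which cassette exons depend on hnRNP L. No event passed an adjusted p of 0.05 in the edgeR quasi-likelihood test of skipping against inclusion reads (0 of 637, 0%). The smallest adjusted p was 0.248, for Wac. At an unadjusted p under 0.05 there were 34 events (5.34%), 16 with more skipping in KO (2.51%) and 18 with less (2.83%). DESeq2 and limma also called 0 events, with 15 and 36 at an unadjusted p under 0.05. The 34 came to 11 without KO replicate 1, to 10 with KO replicate 2 left out, and to 25 with WT replicate 1, the library that stood apart, left out. With TMM scaling of the columns the median log2 change of the skipping odds over all tested events moved from -0.04 to 0.08 and the split at an unadjusted p under 0.05 from 16 more and 18 less to 20 more and 15 less. An exact two-sided permutation test of 2 libraries against 2 cannot give a p below 0.333.

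Shares differed about as much within a genotype as between genotypes. Over the 397 well covered events the median absolute difference was 6.22 percentage points for the WT pair and 6.19 for the KO pair, and it ran from 5.33 to 7.24 for a WT library set against a KO library. As a description across events, which share libraries and depth, Pearson's r was 0.935 within WT, 0.949 within KO and 0.915 to 0.941 between them. Both KO shares lay beyond both WT shares in 217 of the 624 events with reads in every library (34.8%), above them in 104 (16.7%) and below them in 113 (18.1%). Of the 338 events with at least 20 skipping and 20 inclusion reads, 75 had such separate groups and means at least 10 percentage points apart, 37 with more skipping in KO and 38 with less. Counts of both directions were close to each other. With 2 libraries against 2 and no ties, random order alone would separate the groups at a rate of 0.333, beside the 34.8% seen. For the 75 events no such rate was worked out.

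**Figure D2:**
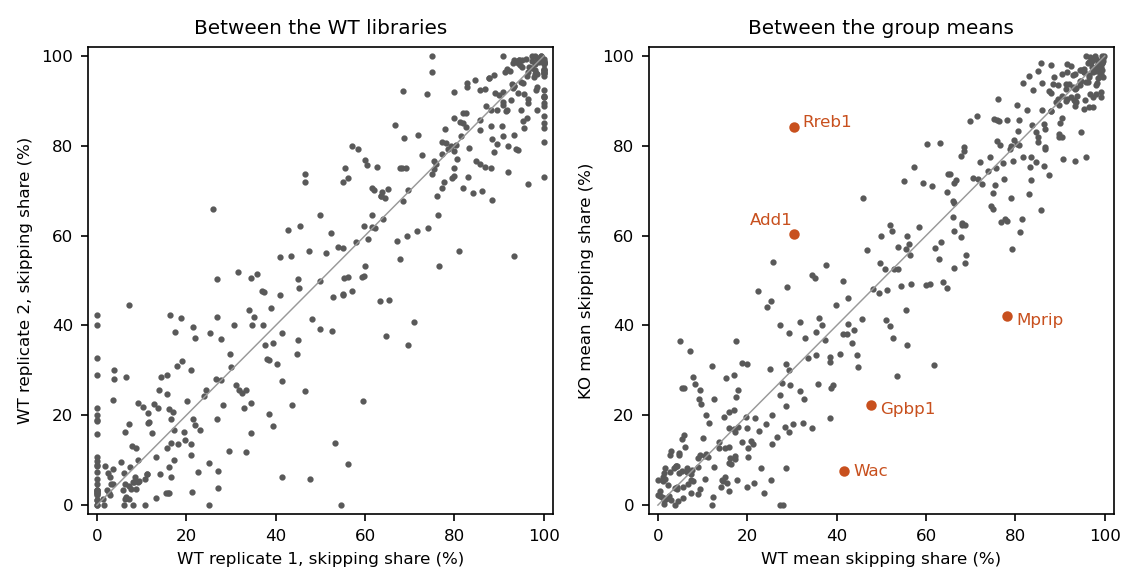
Each point is 1 of the 397 events with at least 10 reads in every library, with the skipping share of WT replicate 1 against WT replicate 2 (left) and the mean WT share against the mean KO share (right), all axes in percent with the line of equal shares. The left panel sets single libraries against each other (median absolute difference 6.22 percentage points) and the right panel sets means of 2, so their scatter is not on the same footing; Wac, Add1, Rreb1, Gpbp1 and Mprip are marked in orange.

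The events described next were the 2 smallest p of each gene list, with at most 1 per gene, and, chosen after their values were seen, the 12 smallest p among events with at least 20 skipping and 20 inclusion reads, 5 reads on each inclusion side and groups that do not overlap, all tested events of the reported hnRNP L targets, and Gpbp1, Ikzf1 and the 93 bp exon of Pcbp2. None passed the adjusted threshold, and their differences are given as values. Over the alternatives that test the skipping odds (all but diffSpliceDGE), the log2 change ran from -4.07 to -2.34 for Wac, 1.23 to 2.48 for Add1, -4.39 to -1.74 for Hk1, -3.43 to -1.23 for Arpc4, 2.76 to 4.84 for Rreb1, -1.82 to -1.51 for Gpbp1 and -9.45 to -6.19 for Ptprc. Leaving out a library moved the log2 change by over 1.5 times in 18 of the 32 events named.

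Wac, a nuclear adaptor protein that takes part in histone ubiquitination, had the smallest p. Its event (chromosome 18, 7906042 to 7916050 in the coordinates of the files, whose build no source used here names) skips a coding exon of 309 bp. Skipping reads numbered 27, 43, 2 and 11, reads on the 5′ inclusion junction 19, 19, 18 and 33, and reads on the 3′ inclusion junction 98, 61, 82 and 140. The skipping share was 31.6%, 51.8%, 3.85% and 11.3%, with both KO libraries below both WT libraries and means of 41.7% ± 14.3 (SD, n = 2) in WT and 7.56% ± 5.26 (SD, n = 2) in KO. The log2 change of the skipping odds was -2.98 (SE 0.78, edgeR adjusted p = 0.248). With the filter raised to 20 skipping and 20 inclusion reads, Wac was the 1 event of 338 past the threshold (adjusted p = 0.0256, 0.0256 to 1.00 over all alternatives). The inclusion junctions each gave the same direction, -2.94 against the start side and -3.01 against the end side.

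Add1, Arpc4 and Mprip act in the membrane skeleton or actin cytoskeleton. They were among the 12 smallest p, a choice that required separate groups. Add1 encodes alpha-adducin, which caps actin filaments and ties them to spectrin under the red cell membrane. Its 37 bp exon (junction at chromosome 5, 34971162 to 34973119 in the files) had 23, 105, 90 and 115 skipping reads, 95, 186, 86 and 78 reads on the 5′ side and 73, 135, 45 and 57 on the 3′ side. The share was 21.5%, 39.5%, 57.9% and 63.0%, with KO above WT in both libraries but also a wide gap between the WT libraries (30.5% ± 12.8 against 60.4% ± 3.63, SD, n = 2). The log2 change was 1.78 (SE 0.60, edgeR adjusted p = 0.551). The whole gene fell by 0.62 on the log2 scale in KO (edgeR adjusted p = 0.0182), from 533 and 525 to 348 and 338 CPM. In the matched GENCODE transcript coding ends within this exon, so the path around it, printed above, leaves out that end. The protein that would follow was not analysed. Arpc4, a subunit of the Arp2/3 complex that nucleates branched actin, had 21, 43, 16 and 3 skipping reads over a well covered exon (176, 244, 288 and 225 reads on its 5′ side). Its share was 12.3%, 16.0%, 6.58% and 1.46% (log2 change -1.99, SE 0.67, edgeR adjusted p = 0.551), low in all libraries and lowest in KO replicate 2. Mprip, which links myosin phosphatase to actin filaments, had a share of 88.4%, 67.9%, 40.5% and 43.6% for a 66 bp exon (junction at chromosome 11, 59585204 to 59589018 in the files), and the KO libraries lay together below the WT libraries.

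Ptprc had few reads and, among the reported hnRNP L targets, the largest difference in mean share. The junction that joins exon 3 to exon 7 (chromosome 1, 140013602 to 140022880 in the files), which leaves out all 3 exons printed above, had 3, 6, 1 and 0 reads. The junction into exon 4 had 0, 0, 5 and 3 reads, that from exon 4 to 5 had 0, 2, 7 and 16, that from exon 5 to 6 had 0, 1, 6 and 2, and that from exon 6 to 7 had 0, 1, 6 and 8. Together these 4 junctions had 0, 4, 24 and 29 reads, so inclusion was seen mostly in the KO libraries. The share was 100%, 92.3%, 15.4% and 0% from the outer junctions, and the 0 reads in KO replicate 2 allow a share of up to 35.3% by counting error, which is 3 skipping reads beside its inclusion reads. The log2 change was -7.18 (SE 2.45, edgeR adjusted p = 0.551), and no more than 6 skipping reads in a library stand behind it. Ptprc as a gene was at 40.7, 32.7, 40.8 and 34.8 CPM (edgeR adjusted p = 0.856). The granulocyte and platelet markers named above were higher in the same libraries, and cell types use different CD45 exons, but their part was not tested.

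**Figure D3:**
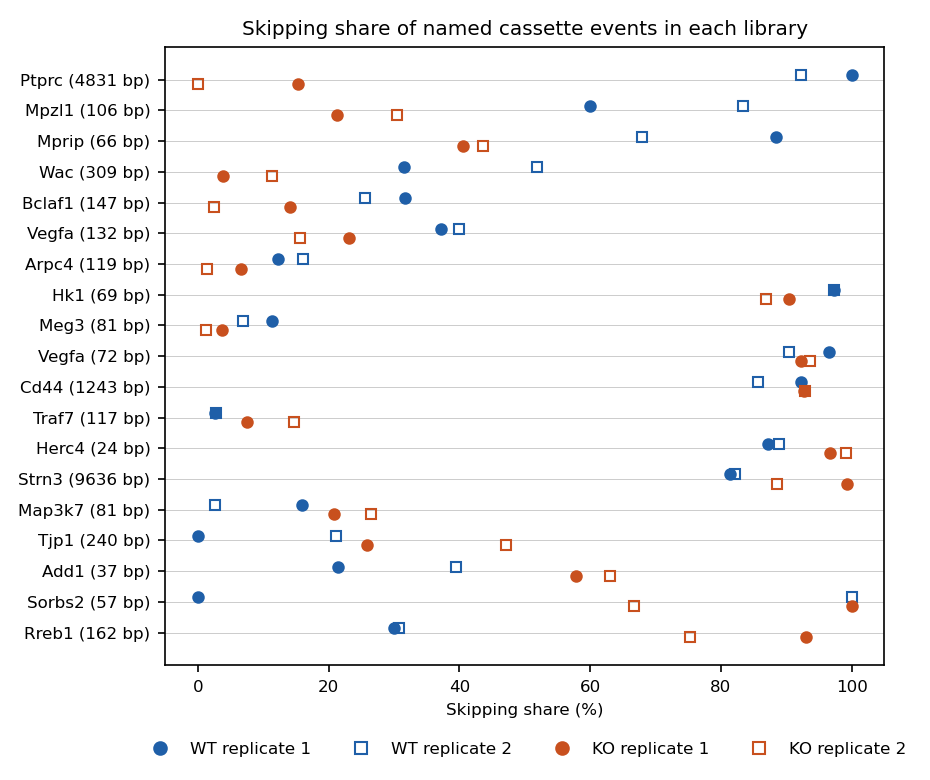
Skipping share (x axis, percent) in each library for the events of the 12 smallest p and of the reported hnRNP L targets, with WT in blue, KO in orange, replicate 1 filled and replicate 2 open; the number in parentheses is the skipped stretch in bp. The rows are ordered by the difference of the means, from Ptprc (KO at 0% and 15.4%) at the top to Rreb1 (KO at 75.3% and 93.0%) at the bottom.

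Hk1, Gpbp1, Rreb1 and Pcbp2 are described together as events whose groups did not overlap. Hk1, the hexokinase of red cells and many other tissues, had 162, 181, 185 and 163 skipping reads and a share of 97.3%, 97.3%, 90.5% and 86.9%. The difference lay on the inclusion side. Reads out of its CA-bearing exon, on the 3′ side, numbered 0, 1, 12 and 14, and reads into it, on the 5′ side, 9, 9, 27 and 35. The log2 change was -2.17 (SE 0.68, edgeR adjusted p = 0.551). Gpbp1, a factor that binds GC-rich promoters, had 57, 68, 19 and 18 skipping reads and a share of 45.1%, 50.4%, 22.2% and 22.2% (log2 change -1.67, SE 0.65, edgeR adjusted p = 0.790). Its 5′ inclusion junction had 0, 1, 1 and 1 reads against 139, 133, 132 and 125 on the 3′ side, so the inclusion reads came almost all from the 3′ side. The share takes the mean of both sides, so the nearly empty 5′ side raises it in every library. Rreb1, a zinc-finger factor that acts downstream of Ras, had a share of 30%, 30.8%, 93.0% and 75.3% from 3, 4, 20 and 32 skipping reads (log2 change 3.57, SE 1.30, edgeR adjusted p = 0.757). Its inclusion reads were also few, 5, 8, 0 and 7 on the 5′ side and 9, 10, 3 and 14 on the 3′ side. Pcbp2, a poly(C)-binding protein, had less skipping in KO at both of its tested exons, 21.4%, 19.1%, 14.6% and 6.67% at the 39 bp exon and 59.7%, 62.2%, 52.9% and 45.7% at the 93 bp exon. The exon of Clk1, a kinase of splicing factors and like Pcbp2 on the splicing list, had 18.9%, 41.6%, 20.3% and 15.8%, and its groups overlapped.

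**Figure D4:**
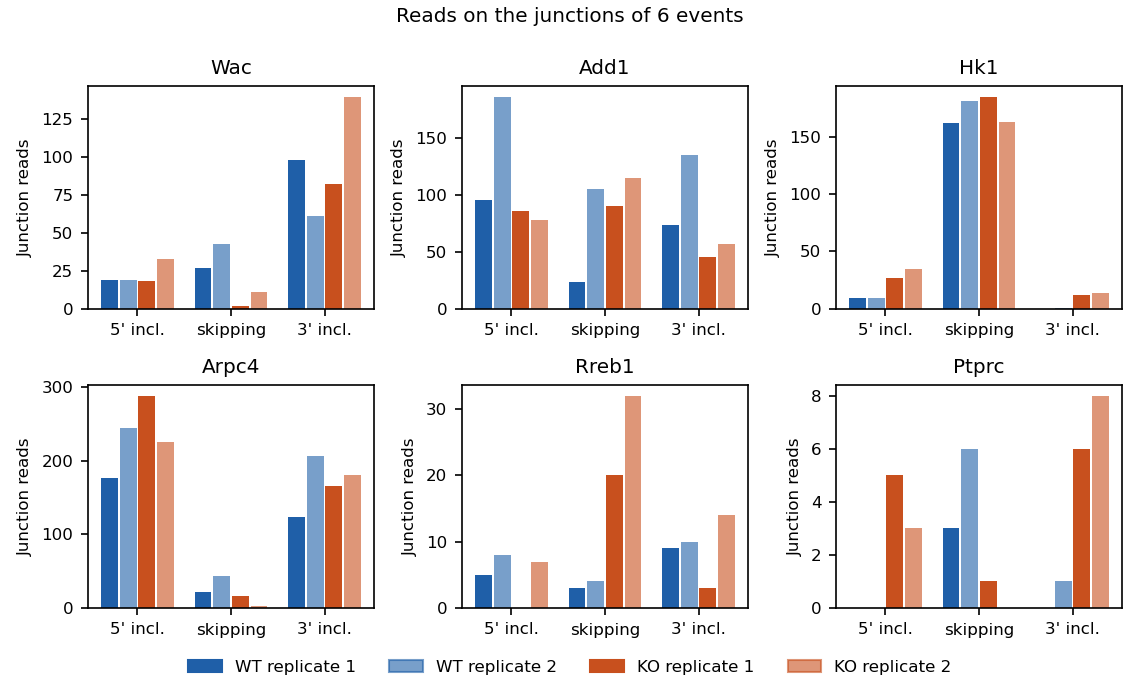
Reads on the 5′ inclusion, skipping and 3′ inclusion junctions (x axis) of 6 events in the 4 libraries (y axis, raw junction reads; WT blue, KO orange, replicate 2 paler). For Wac the skipping bars are 27, 43, 2 and 11 reads beside 98, 61, 82 and 140 reads on the 3′ inclusion junction, and for Hk1 the 3′ inclusion bars are 0, 1, 12 and 14; bars are not scaled for the depth of the libraries.

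Transcription and signalling genes gave differences in both directions. Ikzf1, the lymphoid and erythroid zinc-finger factor Ikaros, had a share of 28.3%, 22.3%, 52.7% and 38.3% for a 261 bp exon (junction at chromosome 11, 11607907 to 11654010) (log2 change 1.31, SE 0.76), with KO above WT. The change was 1.78 against its 5′ inclusion junction and 0.15 against its 3′ inclusion junction, so the difference rests on the 5′ side. Stat5a, which carries erythropoietin signals, had 7.14%, 4.35%, 21.4% and 30.6% on 1, 1, 6 and 11 skipping reads. Runx1, the blood stem cell factor, had 0%, 40%, 66.7% and 83.3% from 0, 2, 5 and 10 skipping reads, with the WT libraries far apart. Traf7, a ubiquitin ligase of the MEKK3 pathway, had 2.67%, 2.80%, 7.46% and 14.7% on 2, 2, 5 and 14 skipping reads. Its WT shares lay below the 3.95% and 4.14% that 3 skipping reads would give there. Strn3, a scaffold of a phosphatase complex, had 81.4%, 82.2%, 99.2% and 88.6%. Mark2, a kinase of microtubule-associated proteins, had 75%, 96.4%, 96.8% and 100%, with at most 1 read in a library on its 3′ inclusion side. Bclaf1, a regulator of transcription and RNA processing, had 31.7%, 25.5%, 14.1% and 2.53%, and Bnip2, a Bcl2-interacting protein, 78.0%, 80.5%, 61.2% and 52.8%, both with KO below WT. The 3′ inclusion junction of Bclaf1 had 0, 1, 3 and 4 reads against 43, 69, 58 and 73 on its 5′ side. Opa1, the inner-membrane fusion protein of mitochondria, had 11.8%, 20.7%, 61.3% and 37.5% on 1, 3, 23 and 6 skipping reads. Its 5′ inclusion junction had 0, 4, 0 and 0 reads against 15, 19, 29 and 20 on the 3′ side. As for Gpbp1, the side with few reads raises the shares of Bclaf1 and Opa1. Golga2, a Golgi matrix protein, had 58.3%, 0%, 100% and 88.9% on at most 7 skipping reads in a library. The spread of Golga2 within WT covered most of the scale. Mpzl1, a receptor-like glycoprotein (junction at chromosome 1, 167523808 to 167534741), had 60.0%, 83.3%, 21.3% and 30.5%. Herc4, a ubiquitin ligase, had 87.2%, 88.9%, 96.7% and 99.1% for a 24 bp microexon. The imprinted non-coding RNA Meg3 had 11.3%, 6.87%, 3.64% and 1.27% on 11, 9, 9 and 3 skipping reads. Cdk2, the S-phase kinase, had 67.1%, 58.8%, 47.0% and 62.6% with overlapping groups. The helicase Rtel1 had 9.09%, 22.6%, 0% and 6.06% on 1, 6, 0 and 1 skipping reads. Beside its inclusion reads, 3 skipping reads would give 23.1%, 12.8%, 21.4% and 16.2%. None of these events passed the adjusted test, and for those among the 12 smallest p separate groups were a condition of the choice.

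Of 24 reported hnRNP L targets, 6 genes had 7 tested events, and Hnrnpl and its paralog Hnrpll have no cassette event in the annotation. Both KO shares were above both WT shares in 3 of the 7 and below them in 2, beside 16.7% and 18.1% over the 624 events with reads in every library. Map3k7, the kinase TAK1, had 15.9%, 2.68%, 20.8% and 26.5% for its 81 bp exon (log2 change 1.94, SE 0.99, edgeR adjusted p = 0.892). Its log2 change was 3.39 with the first WT library left out and 0.69 with the second left out. The 132 bp exon of the growth factor gene Vegfa had 37.2%, 40%, 23.1% and 15.6%, and its 72 bp exon 96.6%, 90.5%, 92.3% and 93.5%. Tjp1, a tight-junction scaffold, had 0%, 21.1%, 25.8% and 47.1% on at most 8 skipping reads in a library. The events of Cd44 (92.3%, 85.7%, 92.7% and 92.9%) and Sorbs2 (0%, 100%, 100% and 66.7%, on at most 13 skipping reads in a library) showed little difference or little depth. Counts differed by gene, and no direction was common to the list.

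By gene list, the tested events called were 0 in each of the 8 lists. Above and below both WT libraries lay 9 and 6 of 28 events of the cytoskeleton list, 5 and 8 of 26 of chromatin and transcription, 5 and 6 of 22 of kinases and signalling, 4 and 2 of 14 of membrane traffic, 2 and 3 of 30 of splicing factors, 0 and 2 of 9 of cell death, and 0 and 1 of 4 of cell cycle and repair, beside 16.7% and 18.1% over all events, all counted over events with reads in every library. The median log2 change was 0.12 for the cytoskeleton list, -0.38 for chromatin and transcription, 0.51 for membrane traffic, -0.17 for kinases and signalling, 0.11 for cell death, -0.73 for cell cycle and repair, 0.57 for the reported targets and -0.01 for splicing factors, against -0.04 over all tested events.

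The exons were described by the motif ACACAC or CACACA, searched on the sense strand, where overlapping matches count as a single exon. It occurs in 83 of the 1504 matched single exons (5.52%) and in 33 tested ones (5.77%). The 55 tested events that skip several exons were not searched. The Ptprc event, whose exon 6 printed above holds the motif, is therefore not counted here. The share was 6.67% in exons with KO above WT, 7.07% in exons with KO below WT and 5.22% in the other tested exons. Of the 33, 6 lay above and 7 below both WT libraries, beside 34.8% in either direction over all events with reads in every library. At an unadjusted p under 0.05 there were 3, beside 5.34% of all tested events: those of Hk1, Smox and Gpbp1, each with less skipping in KO. Their median log2 change was 0.22, against -0.07 for the 539 tested exons without the motif. Introns, where hnRNP L also binds, were not analysed here. The median exon length was 93 bp with KO above WT, 97 bp with KO below WT and 94.5 bp in the others, and the length divides by 3 in 65.9%, 63.4% and 67.7%.

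The junctions into and out of an exon should carry like numbers of reads, and often did not. Of 401 tested events with at least 10 reads on each side, 211 (52.6%) had sides within 2-fold and 332 within 4-fold of each other. In 17 events 1 side had no read and the other at least 20. In the usage test, where a junction is set against all known junctions of its gene, 0 of the 687 skipping junctions tested passed (edgeR diffSpliceDGE), beside 2 of all 103312 known junctions (0.00194%), and 24 had an unadjusted p under 0.05 (3.49%, against 2.38% of all known junctions). Neither of the 2 was a skipping junction. Median absolute log2 change in usage was 0.40 for skipping, 0.47 for inclusion and 0.35 for other junctions, with medians of 49, 41 and 69 reads.

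At gene level, 144 of the 1204 tested genes with a cassette event were higher in KO and 121 lower (22.0%, against 20.8% of all 15036 genes, of which 11.4% were higher and 9.43% lower). The 265 came to 96 and 51 when the first or the second WT library was left out, and to 72 with KO replicate 2 left out. Genes of events with separate groups had 25 higher and 26 lower of 204 (25%), and all genes of tested events 64 higher and 78 lower of 551 (25.8%). Of the genes named above, Meg3 (log2 change 0.83), Tjp1 (0.86), Mpzl1 (0.75), Rreb1 (0.60) and Vegfa (0.56) rose and Add1 (-0.62), Herc4 (-0.46) and Cdk2 (-0.40) fell at gene level (edgeR adjusted p 0.00996 to 0.0448), and the part of these changes in the shares was not tested.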

How the data were processed

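RNA from fetal liver cells of 2 WT and 2 KO mice was depleted of ribosomal RNA, fragmented and amplified for 12 PCR cycles before sequencing, per the labels' protocols. For each library the authors deposited raw read counts per transcript (per the file headers, from primary alignments of mapping quality 10 or more, minimum score 0, score clear zone 5) and raw read counts per splice junction, marked known or putative. For the junction counts the aligner, build and counting rules are unknown here. Putative junctions were left out. Junction coordinates are those of the files.

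Skipping reads and the inclusion reads of both sides formed 2 columns per library. The genotype by skipping interaction was tested with edgeR 4.0.16 (R 4.3.3) with library terms and the known junction reads as library size, Benjamini-Hochberg over 637 events, threshold 0.05. Junction usage used diffSpliceDGE on known junctions with at least 10 reads. Gene levels used the transcript with most reads, TMM and filterByExpr. DESeq2 1.42.0 and limma 3.58.1 (offset 0.5) were alternatives. The edgeR tests of skipping, junction usage and gene level were checked on simulated reads with a fixed dispersion that was not estimated from these data. DESeq2 and limma were not checked in this way. Tables were made with Python 3.11.15 and pandas 2.3.3. Floors take 3 counts and cover counting error only, since PCR copies are not separate molecules. The labels name no litters, so each p-value reflects only how these 4 libraries vary, which may be technical.

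The members and gene lists were chosen with earlier results of these data known. The rule for named genes was events past the threshold (none), the 2 smallest p per gene list with at most 1 per gene, and Hnrnpl and Hnrpll. Other named events were chosen after their values were seen.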

Additional observations from a re-analysis of the deposited data

How the results depend on the processing

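The count of events past the threshold was 0 in the main test and under every alternative except 1, the filter of 20 skipping and 20 inclusion reads, which called 1 event, Wac. Fewer events were then tested (338). The count at an unadjusted p under 0.05, 34 in the main test, was 15 with DESeq2, 18 with diffSpliceDGE, and 10 to 31 when a library was left out. Genes with a cassette event past the gene-level threshold, 265 in the main test, numbered 51 to 211 when a library was left out. Among the 32 named events, 480 values under alternatives kept direction and side of the threshold. Wac passed the threshold with the stricter filter at an unchanged log2 change of -2.98, and 5 values changed sign: Golga2 with diffSpliceDGE (-0.60), Sorbs2 without WT replicate 1 (-1.41 to 7.48 when a library was left out), and the 72 bp exon of Vegfa with TMM scaling (0.061), without WT replicate 1 and without KO replicate 1 (-0.999 to 0.48 when a library was left out). The cause was not tested. The alternative that asks for 5 reads on each inclusion side was chosen after seeing the data and called 0 of 483 events. A replicate block on the number that names 1 WT and 1 KO file called 0 events, with 27 at an unadjusted p under 0.05 and a smallest adjusted p of 0.0660; the deviations of the libraries so paired correlated at -0.047, and the labels give no pairing. Depth limits most events, with a median of 25 to 42 reads per library.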

Other observations

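Several events beyond those described in full are added here. In Smox, mentioned above for its CA motif, and in Evl and Pfkfb2, skipping reads came from 1 genotype alone. Such events passed the filter on skipping reads only through that genotype. Scarb1 and Prr13 had reads on both paths in both genotypes. All these events were chosen after their values were seen, none passed the adjusted threshold, and no explanation was tested. Smox, spermine oxidase, had 3, 5, 0 and 0 skipping reads beside 93, 94, 109 and 68 reads on the 5′ side of its 161 bp exon. Evl, an actin regulator of the Ena/VASP family, had 0, 0, 8 and 2 skipping reads for a 63 bp exon, a share of 0%, 0%, 48.5% and 18.2%. Pfkfb2, which sets the level of a glycolytic activator, had 2, 5, 0 and 0. Scarb1, the receptor for high-density lipoprotein, had better depth, with 25, 43, 53 and 105 skipping reads and shares of 31.1%, 26.7%, 43.6% and 53.4%. Prr13 had 61.5%, 64.5%, 77.7% and 83.5% at an exon of its 5′ UTR, from 56 to 157 skipping reads per library.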
